A study of Homo sapiens with 10 samples.

Results

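The plasminogen activator system was described here through 4 genes, PLAU, PLAUR, PLAT and SERPINE2, which were chosen by name from the 63299 genes in the count tables. All 4 passed the filter on low counts, which left 16143 genes to be tested. RNA-sequencing of polyadenylated RNA was performed in U2OS cells (spelled U20S in the sample labels), a human osteosarcoma cell line, to ask how transcripts change after knockdown of the DEAD-box helicase DDX41. The siCtrl group held 5 libraries of cells with a control knockdown, and the siDDX41 group held 5 libraries of cells with a DDX41 knockdown, in both cases 48 h after the knockdown was induced with pooled siRNAs. All libraries come from this cell line in DMEM with serum, and the pool leaves effects of single siRNAs unseparated. The replicates are those numbered in the labels, which do not say whether they were separate cultures, so that p-values measure only the spread between these samples. Between 21807041 and 24896398 reads were counted per library.

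Plasminogen activators are serine proteases that cut the inactive plasminogen into plasmin, a protease that dissolves fibrin and degrades extracellular matrix. Urokinase, encoded by PLAU, acts mostly at the cell surface when bound to its receptor uPAR, encoded by PLAUR, whereas the tissue-type activator, encoded by PLAT, works best on fibrin. Serpins such as protease nexin-1 (SERPINE2) trap the activators in complexes that are taken up by receptors of the LDL receptor family, and many tumor cells, including those of sarcomas, make urokinase and its receptor.

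DDX41 itself was measured first in each library, as a check of the labels. Its level, as counts scaled to library size by TMM factors (CPM), was 49.1, 49.4, 47.3, 47.2 and 50.5 in siCtrl replicates 1 to 5, and 11.5, 13.7, 12.4, 11.2 and 12.3 in siDDX41 replicates 1 to 5. Every siDDX41 library lay below every siCtrl library. The log2 fold change of DDX41 was -1.99 with a standard error of 0.05 (adjusted p = 4.47e-24, edgeR quasi-likelihood F test, Benjamini-Hochberg method).

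Among the members, PLAU and PLAUR were higher in siDDX41 libraries and PLAT and SERPINE2 were lower, each with an adjusted p below 0.01. This count of 2 higher and 2 lower members has to be read against a broad background, since 30.3% of all tested genes were higher and 32.1% were lower by the same rule. The groups did not overlap in any of the 4 members, and every siDDX41 library was above every siCtrl library in 26.7% of tested genes and below in 29.3%. The median absolute log2 fold change of all tested genes was 0.28. The change of PLAU was larger than this, and those of PLAUR, PLAT and SERPINE2 were smaller. In bulk RNA, fewer cells of a type and less RNA per cell cannot be told apart.

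**Figure D1:**
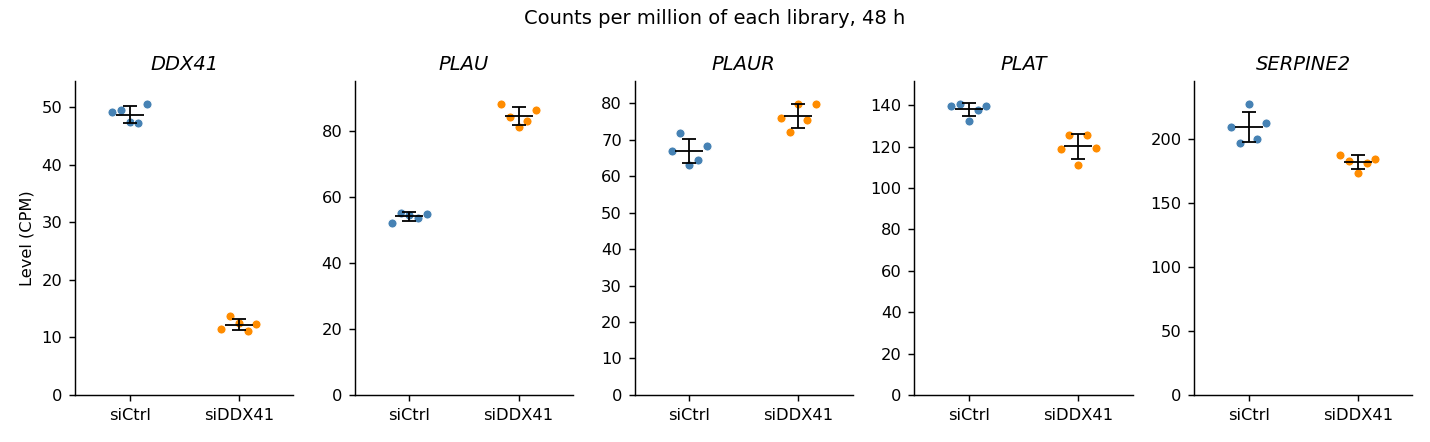
Level of DDX41 and of the 4 members in each library, in CPM on linear axes that start at 0. Points are single libraries (5 siCtrl in blue, 5 siDDX41 in orange), and black lines give the mean and SD. PLAU moved from 54.2 to 84.7 CPM, and PLAUR shows the narrowest gap, between 71.8 CPM in siCtrl replicate 2 and 72.0 CPM in siDDX41 replicate 2.

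PLAU (ENSG00000122861.15) encodes urokinase, the activator that is bound at the cell surface. It lies on the plus strand at chr10:73909177-73917496 of GRCh38, with 5 annotated transcripts, and its MANE Select transcript (the reference transcript shared by RefSeq and Ensembl) has 11 exons and 2343 bases. Its level was 52.1, 55.3, 54.6, 53.8 and 55.1 CPM in siCtrl replicates 1 to 5. In siDDX41 replicates 1 to 5 it was 88.2, 84.4, 81.5, 83.1 and 86.5 CPM. Each siDDX41 library was far above the siCtrl libraries, and libraries within a group were close to each other, with a coefficient of variation of 2.37% and 3.18%. The mean rose from 54.2 ± 1.28 to 84.7 ± 2.69 CPM (SD, n = 5 each), 1.56-fold. The log2 fold change was 0.64 (standard error 0.03, 95% confidence interval 0.58 to 0.71, adjusted p = 1.17e-16, edgeR quasi-likelihood F test, Benjamini-Hochberg method). It exceeded that of 93.2% of all tested genes. Over 915 bases, 31.0% of their length, PLAU exons are shared with the antisense lncRNA gene C10orf55. The libraries were prepared with a stranded kit, but the strand setting of the counting is not given in the sources used here. C10orf55 had a mean of 12.3 counts per library, 0.751% of those of PLAU.

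PLAUR (ENSG00000011422.11) encodes the urokinase receptor, which is attached to the membrane by a lipid anchor. The gene lies on the minus strand at chr19:43646095-43670547, with 16 annotated transcripts, of which the MANE Select transcript has 7 exons and 1368 bases. In siCtrl replicates 1 to 5 its level was 66.8, 71.8, 63.0, 64.5 and 68.3 CPM. In siDDX41 replicates 1 to 5 it was 75.9, 72.0, 79.7, 75.3 and 79.6 CPM. The groups were separate, but siDDX41 replicate 2 was only slightly above siCtrl replicate 2, a gap smaller than the SD of either group. PLAUR rose 1.14-fold, from 66.9 ± 3.41 to 76.5 ± 3.26 CPM (SD, n = 5 each). Its log2 fold change was 0.19 (standard error 0.04, 95% confidence interval 0.12 to 0.27, adjusted p = 3.48e-05, edgeR quasi-likelihood F test, Benjamini-Hochberg method), above that of 69.8% of tested genes. No counted gene shares exon bases with PLAUR.

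As PLAU and PLAUR were both higher, upstream sequences were compared. Windows for 3 of the members were taken from the RefSeq promoter table (GRCh38.p14), 2 for PLAU, 1 for PLAUR and 2 for SERPINE2. Upstream sequence of PLAT was left out of this search. In the 250 bases before each start site, both strands were searched for the AP-1 motif TGANTCA, the GC box, spelled GGGCGG, the CCAAT box, which is named by its letters, and the TATA box, spelled TATAAA. None of these contains another. Of 35116 upstream windows in the table, 6.57% held the AP-1 letters, 42.6% the GC box, 32.0% the CCAAT box and 10.7% the TATA box. Each stretch below is the longest run of the 250 bases outside annotated exons of its gene, or for PLAUR the bases around its AP-1 match. Matches are in capitals, and each stretch is written 5′ to 3′ on the strand of its gene. The PLAU stretch (chr10:73910882-73911103, plus strand) covers bases -250 to -29 from the start site of the MANE Select transcript and lies outside annotated PLAU exons, but within an exon of C10orf55. The PLAUR stretch (chr19:43670338-43670366, minus strand) covers bases -197 to -169 from the start site and lies in an exon of a longer PLAUR transcript. Both SERPINE2 stretches (chr2:224038805-224038890 and chr2:224031479-224031728, minus strand) lie upstream of alternative start sites and outside annotated SERPINE2 exons.
PLAU: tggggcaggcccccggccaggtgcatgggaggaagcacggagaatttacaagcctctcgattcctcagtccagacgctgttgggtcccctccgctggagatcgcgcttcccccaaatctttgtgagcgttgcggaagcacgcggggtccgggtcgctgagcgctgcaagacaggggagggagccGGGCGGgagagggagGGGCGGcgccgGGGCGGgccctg
PLAUR: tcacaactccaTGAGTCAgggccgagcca
SERPINE2, 86 bases: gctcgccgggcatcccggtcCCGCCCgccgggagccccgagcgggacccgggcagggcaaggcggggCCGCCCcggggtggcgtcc
SERPINE2, 250 bases: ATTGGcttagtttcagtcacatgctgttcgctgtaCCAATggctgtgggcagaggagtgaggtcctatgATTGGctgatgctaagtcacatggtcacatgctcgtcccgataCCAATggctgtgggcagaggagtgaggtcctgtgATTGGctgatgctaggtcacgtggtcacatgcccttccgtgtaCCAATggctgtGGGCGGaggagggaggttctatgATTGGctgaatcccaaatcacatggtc
The PLAU stretch held 3 GC boxes, and the PLAUR stretch held 1 AP-1 match. The shorter SERPINE2 stretch held 2 GC boxes, and the longer one held 7 CCAAT boxes and 1 GC box. The other PLAU window, which is not shown, held 1 CCAAT box. Of the 4 motifs, PLAU and PLAUR windows shared none. A match describes letters in these windows and was not tested as a binding site.

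SERPINE2 (ENSG00000135919.12) encodes protease nexin-1, a secreted serpin that inhibits urokinase, the tissue-type activator and thrombin. The gene spans chr2:223975045-224039318 on the minus strand, with 10 annotated transcripts and a MANE Select transcript of 9 exons and 2226 bases. Its level was 209.9, 197, 227, 200.3 and 213 CPM in siCtrl replicates 1 to 5. In siDDX41 replicates 1 to 5 it was 188, 183, 173, 181 and 185 CPM. All siDDX41 libraries were below the lowest siCtrl library, replicate 2, and the siCtrl libraries were more spread, with siCtrl replicate 3 highest. The mean fell from 209 ± 11.96 to 182 ± 5.43 CPM (SD, n = 5 each), to 0.869 of the control level. The log2 fold change of SERPINE2 was -0.20 (standard error 0.03, 95% confidence interval -0.27 to -0.13, adjusted p = 4.52e-06, edgeR quasi-likelihood F test, Benjamini-Hochberg method), and 32.9% of tested genes had a lower one.

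PLAT (ENSG00000104368.17) encodes the tissue-type activator, best known for the dissolution of blood clots. It lies on the minus strand at chr8:42174718-42207709, with 17 annotated transcripts, and its MANE Select transcript has 14 exons and 3062 bases. In siCtrl replicates 1 to 5 the level of PLAT was 139.7, 140.4, 132, 138 and 139 CPM. In siDDX41 replicates 1 to 5 it was 119, 126, 111, 126 and 119 CPM. The groups did not overlap, and replicate 3 was the lowest library of each group. PLAT fell from 138 ± 3.22 to 120.1 ± 5.98 CPM (SD, n = 5 each), to 0.870 of the control level. Its log2 fold change was -0.20 (standard error 0.03, 95% confidence interval -0.27 to -0.13, adjusted p = 2.71e-06, edgeR quasi-likelihood F test, Benjamini-Hochberg method), so that the activators PLAU and PLAT changed in opposite directions. PLAT and SERPINE2 share no exon bases with a counted gene.

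Since the activator and its inhibitor act on each other, PLAU was also set against the other genes within each library, as a log2 ratio of counts per kb of the union of annotated exons. The ratio of PLAU to SERPINE2 was -0.41, -0.23, -0.45, -0.29 and -0.35 in siCtrl replicates 1 to 5, and 0.51, 0.49, 0.51, 0.48 and 0.51 in siDDX41 replicates 1 to 5. Every siDDX41 library was above every siCtrl library. The mean difference was 0.85 on the log2 scale, a 1.80-fold shift toward PLAU that does not depend on the length used. Relative to PLAT, the log2 ratio of PLAU moved from 0.05 ± 0.05 to 0.90 ± 0.08 (SD, n = 5 each), also 1.80-fold. Relative to its receptor PLAUR it moved from 0.29 ± 0.07 to 0.74 ± 0.08 (SD, n = 5 each), 1.37-fold. These ratios are given without a test, and their shifts restate the changes of the single members given above.

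The order of levels between these genes depended on the length by which counts were divided. With the union of annotated exons, SERPINE2 was highest of the members in siCtrl libraries at 23.4 ± 1.34 CPM per kb, followed by PLAU (18.4 ± 0.435), PLAT (17.7 ± 0.415) and PLAUR (15.0 ± 0.764 CPM per kb, SD, n = 5 each), and single libraries of PLAU and PLAT overlapped. In siDDX41 libraries PLAU was highest at 28.7 ± 0.913 CPM per kb, followed by SERPINE2 (20.3 ± 0.606), PLAUR (17.2 ± 0.732) and PLAT (15.5 ± 0.769 CPM per kb, SD, n = 5 each), and here PLAUR and PLAT overlapped. The union is 8957 bases for SERPINE2 and 2949 bases for PLAU. With the MANE Select length, an alternative chosen after seeing the data, PLAU was lowest in both groups, at 23.1 ± 0.547 and 36.2 ± 1.15 CPM per kb (SD, n = 5 each). SERPINE2 was then highest of the members, at 94.1 ± 5.37 and 81.8 ± 2.44 CPM per kb (SD, n = 5 each). PLAUR (48.9 ± 2.49 and 55.9 ± 2.38) and PLAT (45.0 ± 1.05 and 39.2 ± 1.95 CPM per kb, SD, n = 5 each) lay between, and PLAT and PLAU overlapped in siDDX41 libraries. The authors worked with an earlier release of the GENCODE annotation, so that the exons counted can differ from those behind the lengths. Which transcripts were made was not measured by counts per gene.

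**Figure D2:**
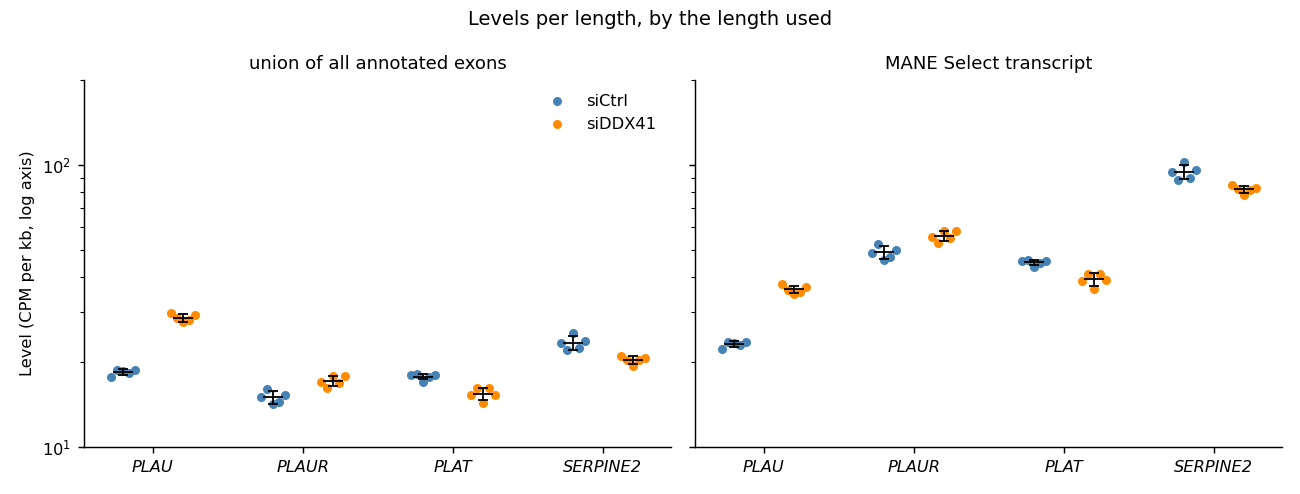
Level per length of the 4 members in each library (CPM per kb, log axis), with the union of annotated exons on the left and the MANE Select transcript on the right. Points are single libraries (siCtrl in blue, siDDX41 in orange) with the mean and SD in black, and PLAU in siDDX41 libraries is the highest member on the left at 28.7 and the lowest on the right at 36.2 CPM per kb.

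Genes with the most similar profile to each member were found by the root mean square difference, over the 10 libraries, of log2 CPM relative to the siCtrl mean. For PLAU these were CC2D1B, RUFY1 and NFE2L2, with differences of 0.03, 0.04 and 0.04. For PLAUR they were GRWD1, PHB2 and WDR45B, with 0.02, 0.03 and 0.03. CDC42SE2, CHTF8 and CD9 were nearest to PLAT, with 0.03, 0.03 and 0.04, and WSB1, SRPK1 and RCBTB1 were nearest to SERPINE2, with 0.04, 0.04 and 0.04. As this profile holds the difference between the groups, the nearest genes had similar log2 fold changes by construction. Those of PLAU had 0.66, 0.66 and 0.64.

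The members were then placed among 90 other genes of the pathway and its families, in 9 lists. Of the 66 that passed the filter, 24 were higher (36.4%), 27 were lower (40.9%) and 15 were not called, beside 30.3% higher and 32.1% lower of all tested genes. The list genes had a median log2 fold change of -0.02, where that of all tested genes was -0.0014. Among other inhibitors of the activators and of plasmin, 6 genes were considered and 2 passed the filter. SERPINI1 (neuroserpin) and A2M (alpha-2-macroglobulin) were not called, with log2 fold changes of 0.09 and 0.19, and A2M exons overlap those of the antisense A2M-AS1.

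Plasminogen itself was not detected, as PLG had 0 counts in each of the 10 libraries. Of its 4 tested binding proteins at the cell surface, 2 were higher and 1 was lower, where 30.3% of all tested genes were higher and 32.1% lower. The plasminogen receptor PLGRKT rose from 20.5 ± 0.507 to 31.6 ± 1.98 CPM (SD, n = 5 each), with a log2 fold change of 0.63, and the glycolytic enzyme ENO1, which also binds plasminogen, had 0.28. S100A10 had a log2 fold change of -0.13, whereas its partner ANXA2 was not called (-0.02). Among proteases that activate the urokinase precursor, the lysosomal cathepsins CTSB and CTSL rose, by log2 fold changes of 0.27 and 0.36. F12 (coagulation factor XII, 0.26) was not called, and the other 4 genes of this list were below the filter. F12 exons share 7.06% of their length with the opposite-strand gene GRK6, which had a mean of 2022.8 counts per library where F12 had 48.3.

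Of the 6 tested clearance receptors and helpers, 4 were higher and 2 were lower, with a median log2 fold change of 0.21, beside 30.3% higher and 32.1% lower of all tested genes. IGF2R, the mannose 6-phosphate receptor, rose from 379 ± 25.3 to 631 ± 28.8 CPM (SD, n = 5 each), with a log2 fold change of 0.74. LRP1, which takes up complexes of activators with serpins, had 0.23, its chaperone LRPAP1 had 0.20 and SORL1 had 0.30. MRC2 (Endo180), a collagen receptor found with uPAR, had -0.13. VLDLR, the receptor for very low density lipoprotein, named after its values were seen, had -0.13 and kept its call in 8 of 15 alternative fits. Single libraries of LRP1, MRC2 and VLDLR overlapped between the groups.

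Of the partners of uPAR at the membrane, 7 were tested, 4 were lower and 2 were higher, beside 32.1% lower and 30.3% higher of all tested genes. The fibronectin receptor subunit ITGA5 fell from 308 ± 16.5 to 73.5 ± 3.83 CPM (SD, n = 5 each), with a log2 fold change of -2.07. ITGB3, a subunit of a vitronectin receptor, had -1.65 and ITGA3 had -0.20, whereas ITGB5 had 0.32. ITGAV had 0.09, with overlapping groups, and kept its call in 11 of 15 alternative fits. ITGB1, the common partner of ITGA3 and ITGA5, was not called at 0.04.

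Of 13 tested substrates of plasmin and the activators, 5 were higher and 6 were lower, where the shares over all tested genes were 30.3% and 32.1%. Their median absolute log2 fold change was 0.72, and that of all tested genes was 0.28. It was 0.68 in the Ly6/uPAR domain family, 0.58 in other serpins, 0.14 to 0.27 in the remaining lists and 0.29 over all list genes. The matrix metalloproteases MMP9 and MMP14 had log2 fold changes of 0.89 and 0.39, the neurotrophin BDNF, whose precursor plasmin can cut, had 0.72, and the matrix protein THBS1 had 0.14. TGFB1, whose latent form plasmin can release, fell from 148 ± 8.58 to 89.1 ± 3.29 CPM (SD, n = 5 each), with a log2 fold change of -0.73. LTBP1, which holds latent TGF-beta in the matrix, had -0.65. FN1 (-0.21) and TGFB2 (-0.08) were not called, and each kept this in 13 of 15 alternative fits. MMP3 (stromelysin-1), named after its values were seen, had 2.03, from 9.58 to 39.1 CPM. In the other direction, and also named after their values were seen, the collagenase MMP13 had -1.50, from 2.42 to 0.852 CPM, and the growth factor PDGFD had -1.02, from 5.82 to 2.87 CPM. Exons of TGFB1 share 6.59% of their length with the opposite-strand gene HNRNPUL1, and those of MMP3 share 1.73% with the pseudogene WTAPP1. HNRNPUL1 had a mean of 9945.6 counts per library where TGFB1 had 2812.7, and WTAPP1 had 81.1 where MMP3 had 571.6.

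In the Ly6/uPAR domain family, to which PLAUR belongs, 5 genes were tested and 3 of them were lower, beside 32.1% of all tested genes. The complement inhibitor CD59 fell from 363 ± 4.12 to 216 ± 7.77 CPM (SD, n = 5 each), with a log2 fold change of -0.75, and LYPD1 had -0.68. LYPD3, at 1.10 and 0.685 CPM, had -0.68, with overlapping groups, and kept its call in 6 of 15 alternative fits. LY6K was not called at 0.20 and passed in 4 of them. LYPD1 exons overlap those of GPR39 over 29.7% of their length and LY6K exons those of LNCOC1 over 80.8%, in both cases on the other strand. GPR39 had a mean of 479.0 counts per library where LYPD1 had 683.9, and LNCOC1 had 55.4 where LY6K had 196.8. The remaining 8 genes of this family were below the filter. Of 8 other tested serpins, 5 were lower and 2 were higher, beside 32.1% and 30.3% of all tested genes. SERPINH1, a collagen chaperone that inhibits no protease, fell from 527 ± 22.8 to 206 ± 8.59 CPM (SD, n = 5 each), with a log2 fold change of -1.35. SERPINA1 (alpha-1-antitrypsin) had -0.90, SERPINF1 (pigment epithelium-derived factor) had -0.79 and SERPING1 (C1 inhibitor) had -0.71.

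Transcription factors known at promoters of activator genes were all tested, and 7 of 18 were higher, 6 were lower and 5 were not called. These shares of 38.9% higher and 33.3% lower lie near those of all tested genes, 30.3% and 32.1%. The AP-1 subunit JUN had a log2 fold change of 0.44 and FOSL2 had -0.16, and FOS (0.36) and FOSL1 (0.26), named after their values were seen, were higher. The other AP-1 genes of this list were not called. The ETS factor ETV4 had 0.57, and ETS1 was not called at 0.06. EGR1 had 0.36 and SMAD3 had 0.22, whereas SMAD4 (-0.62), SP3 (-0.40), SP1 (-0.31) and HIF1A (-0.31) were lower. Exons of ETV4 overlap those of the opposite-strand gene DHX8 over 1.93% of their length, and DHX8 had a mean of 2075.9 counts per library where ETV4 had 2307.0. Levels of transcripts do not measure the binding of these factors, which was not analysed here.

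**Figure D3:**
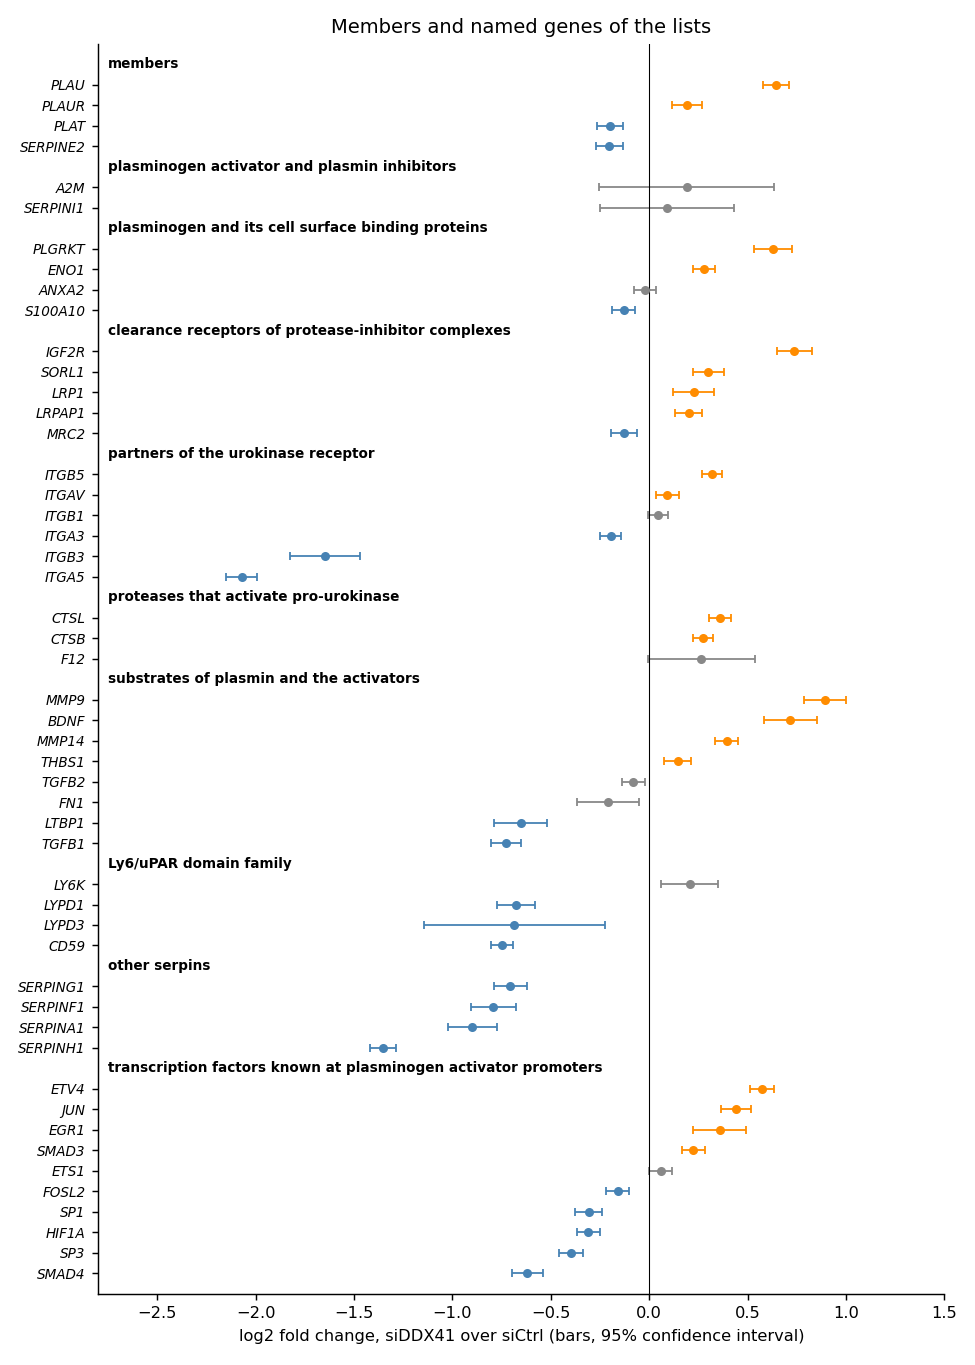
log2 fold change of siDDX41 over siCtrl with its 95% confidence interval for the members and the genes named from each list by rule, grouped by role. Orange marks genes higher, blue genes lower and grey genes not called at an adjusted p under 0.01, and ITGA5 at -2.07 and MMP9 at 0.89 are the ends of the range shown.

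The label of the cells was checked against markers. Mesenchymal markers summed to between 7427 and 7681 CPM in siCtrl and between 7495 and 7899 CPM in siDDX41 libraries, led by SPARC, but COL1A2 and TWIST1 were near 0, with at most 18 and 1 counts in a library. Of 8 such genes, 6 were tested, 2 were higher and 3 were lower, and for this and the next marker lists the shares over all tested genes were 30.3% higher and 32.1% lower. Leukocyte markers (4 genes, 2 tested, 0 called) summed to at most 1.49 CPM in any library, led by ITGAM, with CD3E at 0. Epithelial markers (4 genes, 3 tested, 1 lower) summed to 25.2, 24.8, 27.1, 26.4 and 28.0 CPM in siCtrl replicates 1 to 5 and to 10.9, 13.3, 11.1, 10.2 and 9.88 CPM in siDDX41 replicates 1 to 5. KRT14 led them in siCtrl libraries, at a mean of 17.2 CPM, and had a log2 fold change of -3.27. In siDDX41 libraries EPCAM led them, at a mean of 8.31 CPM where KRT14 had 1.78 CPM. KRT19 had at most 7 counts in a library, and CDH1 and EPCAM were not called. Endothelial markers (4 genes, 2 tested, 2 lower) summed to 4.86, 5.22, 6.01, 5.48 and 5.42 CPM in siCtrl replicates 1 to 5 and to 1.66, 2.69, 2.94, 2.26 and 2.17 CPM in siDDX41 replicates 1 to 5, led by VWF, and CDH5 was the other lower gene, with a log2 fold change of -1.49. SPARC, KRT14, EPCAM, VWF and CDH5 were singled out after their values were seen. The part of these shifts in the changes of the 4 members was not tested.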

How the data were processed

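The authors mapped single reads to hg38 with STAR 2.7 and counted reads per gene with featureCounts 1.6, per their processing notes, and deposited these counts unnormalized. How strand and reads with several matches were treated is not given in the sources used here. Gene names, positions and lengths came from GENCODE 44 (GRCh38, which is hg38) through the unversioned Ensembl identifier, which matched for 98.7% of tested genes. The authors worked with an earlier GENCODE release, so lengths and shared exon bases may differ from those at counting. In R 4.3.3, edgeR 4.0.16 was run on the counts (expression filter by group, TMM factors, robust quasi-likelihood F test, Benjamini-Hochberg adjustment over all tested genes, adjusted p under 0.01), and standard errors were derived from the F statistic. DESeq2 1.42.0 served as an alternative. Other values were computed in Python 3.11.15 with pandas 2.3.3 and scipy 1.17.1. The tests were checked on simulated data. Counts of same-group libraries differed by more than sampling noise in all 20 pairs.

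Genes were named by a rule, which takes the members, DDX41, from each list up to 4 tested genes by adjusted p, list genes with a mean over 100 CPM, the 3 genes nearest in profile to each member among those with at least 5 CPM (0.5 CPM added before the logarithm), and genes sharing exon bases with a member. List genes outside this rule enter the counts and, where named, were chosen after their values were seen. A further list gene was left out of the lists and is not reported here. The members and lists were chosen with earlier results of these data known.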

Additional observations from a re-analysis of the deposited data

Results flagged for a closer look

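Among 162 groups of 5 libraries, from the named genes, ratios and marker sums, 3 held a library far from the others, and none of these was in a member. S100A10, a binding protein of plasminogen, was at 394 CPM in siCtrl replicate 4, above the other siCtrl libraries between 377 and 381 CPM. SPARC, a mesenchymal marker, was at 2750 CPM in siCtrl replicate 2, below the others between 2812 and 2833 CPM. KRT14, an epithelial marker, was at 2.87 CPM in siDDX41 replicate 2, above the others between 1.41 and 1.66 CPM.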

How the results depend on the processing

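The log2 fold changes of DDX41 and the 4 members kept their direction and their side of the threshold in each of 15 alternative fits, which were other scaling of libraries (DESeq2 size factors or upper quartile), no filter on low counts, DESeq2's Wald test, the replicate block, and each library left out in turn. They ranged from 0.63 to 0.66 for PLAU, 0.17 to 0.22 for PLAUR, -0.22 to -0.17 for PLAT, -0.23 to -0.17 for SERPINE2 and -2.04 to -1.96 for DDX41. With an absolute log2 fold change over 1 also required, 410 genes were higher and 982 lower, and 1 and 5 in the pathway lists, so that none of the members was called. The log2 ratios per length moved with the length, by construction. With the longest transcript, the siCtrl and siDDX41 means were -0.78 and 0.069 for PLAU to SERPINE2, -0.97 and -0.12 for PLAU to PLAT, and -1.03 and -0.58 for PLAU to PLAUR. With the MANE Select transcript, chosen after seeing the data, they were -2.02 and -1.18, -0.96 and -0.12, and -1.08 and -0.63. Of 69 other named genes, 61 kept direction and side in every fit. Among uncalled genes, ANXA2 lay between -0.038 and 0.00072 with each library left out, above 0 without siDDX41 replicate 3, and SERPINI1 between -0.033 and 0.17, below 0 without siDDX41 replicate 4. A2M lay between 0.097 without siCtrl replicate 2 and 0.31 without siCtrl replicate 3, and F12 was at 0.18 without siCtrl replicate 4. The cause was not tested.

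Replicate numbers are shared between the groups, but same-numbered libraries did not deviate together (correlations of -0.11 to 0.08, 0 of 5 over 0.1, and 1 siCtrl library closest to its own number). In the fit with the replicate block, 4790 genes were higher and 5097 lower, 24 and 26 in the pathway lists, and the log2 fold changes were 0.64 for PLAU, 0.19 for PLAUR, -0.20 for PLAT, -0.20 for SERPINE2 and -1.99 for DDX41.

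Depth limits genes with few counts, such as the 24 list genes below the filter, whereas members had at least 1258 counts in each library.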
